A study of Mus musculus with 6 samples.

Results

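The genes described here are 10 apolipoprotein genes, Apoa1, Apoa2, Apoa4, Apoa5, Apob, Apoc1, Apoc2, Apoc3, Apoe and Apoh. The choice was made by name, but with earlier results of these data known. They are 10 of the 32212 rows of the count table, and all 10 passed the filter on low counts that left 13867 genes for testing. Poly(A) RNA was sequenced from the livers of 6 mice, 3 of them WT and 3 CgA-KO, with 1 library per mouse. All 6 mice were male, on the C57BL/6 background, on normal chow under a 12 hour light and dark cycle, and 2 yr of age by the sample titles. CgA-KO mice lack chromogranin A, the prohormone encoded by Chga, and no other allele or agent is given for either genotype. The comparison asked which liver transcripts differ between the genotypes at this age.

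Apolipoproteins are the protein parts of plasma lipoproteins, the particles that carry triglyceride and cholesterol in blood. Hepatocytes make most of them and load lipid onto apolipoprotein B to form very low density lipoprotein, while apolipoprotein A1 forms the scaffold of high density lipoprotein. The smaller apolipoproteins move between particles and set how fast lipases, transfer proteins and receptors act on them.

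Total counts ranged from 10558616 in WT replicate 1 to 31087453 in WT replicate 2. Chga had 0 counts in all 6 libraries, so it does not check the genotype labels. A count of 0 allows a level of up to 0.0951 to 0.269 CPM depending on the library. CPM are counts scaled to the library size times its TMM (trimmed mean of M values) factor, except where another scaling is named. The list of 18 hepatocyte markers took 8.05% to 12.9% of the counts. Of these 18, edgeR called 0 as changed, against 12.4% of all genes tested. Without adjustment, 1 of the 18 had an edgeR p under 0.05, against 29.1% of all genes. Of the 10 Kupffer cell markers, 9 were called higher in CgA-KO livers, against 8.6% of all genes. The summed level of the 10 ranged from 131 to 342 CPM in WT and from 1431 to 2057 CPM in CgA-KO libraries. The summed neutrophil markers reached 332 CPM in CgA-KO replicate 2, against 30.9 and 34.2 CPM in the other CgA-KO libraries and at most 10.9 CPM in WT. In bulk RNA of this kind, fewer cells of a type and less RNA per cell cannot be told apart.

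Most of these genes lie in 2 clusters (GRCm38, GENCODE annotation). Apoa1, Apoc3, Apoa4 and Apoa5 share 43.3 kb of chromosome 9, from 46228580 to 46271919, with Apoc3 alone on the minus strand. Apoe, Apoc1 and Apoc2 share 27.6 kb of chromosome 7, from 19671579 to 19699188, all on the minus strand together with Apoc4. Apoa2 lies on chromosome 1 from 171225054 to 171226379, Apoh on chromosome 11 from 108343354 to 108414396, and Apob on chromosome 12 from 7977648 to 8016835, all on the plus strand. Promoter windows of 300 bases, 250 before to 50 after the RefSeq gene start in GRCm38.p6, were found for 8 of the 10 genes, with none for Apoc1 and Apoc3 in the table used. The 4 windows printed here are shown as examples from both clusters, 1 of them, that of Apoa1, without a match to the motifs searched. Their letters were not related to the levels. They are chr9:46228380-46228679 (plus strand), chr9:46240594-46240893 (plus strand), chr9:46268383-46268682 (plus strand) and chr7:19677892-19678191 (minus strand). Capitals mark the matches to 4 motifs chosen after the sequences were seen and searched on both strands, namely TATAAA (the TATA box), CAAAGTNCA (the core recognised by the hepatocyte factor HNF4A), AGGTCA (the nuclear receptor half-site) and CACGTG (the E-box).
Apoa1: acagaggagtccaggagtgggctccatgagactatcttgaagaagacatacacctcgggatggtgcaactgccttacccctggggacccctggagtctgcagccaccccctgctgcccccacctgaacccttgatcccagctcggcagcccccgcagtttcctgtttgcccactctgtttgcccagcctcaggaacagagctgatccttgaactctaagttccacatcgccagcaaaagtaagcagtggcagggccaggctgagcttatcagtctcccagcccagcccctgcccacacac
Apoa4: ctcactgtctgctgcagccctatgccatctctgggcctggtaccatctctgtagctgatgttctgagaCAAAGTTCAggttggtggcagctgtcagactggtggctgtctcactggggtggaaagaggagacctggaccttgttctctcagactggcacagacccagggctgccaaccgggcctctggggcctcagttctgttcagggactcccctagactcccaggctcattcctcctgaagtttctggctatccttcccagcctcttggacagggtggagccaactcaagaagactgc
Apoa5: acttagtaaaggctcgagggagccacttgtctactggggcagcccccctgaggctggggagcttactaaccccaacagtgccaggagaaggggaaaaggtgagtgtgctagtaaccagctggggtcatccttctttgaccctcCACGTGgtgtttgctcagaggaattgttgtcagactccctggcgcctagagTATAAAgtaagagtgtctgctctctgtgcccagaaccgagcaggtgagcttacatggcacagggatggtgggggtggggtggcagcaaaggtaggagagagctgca
Apoc2: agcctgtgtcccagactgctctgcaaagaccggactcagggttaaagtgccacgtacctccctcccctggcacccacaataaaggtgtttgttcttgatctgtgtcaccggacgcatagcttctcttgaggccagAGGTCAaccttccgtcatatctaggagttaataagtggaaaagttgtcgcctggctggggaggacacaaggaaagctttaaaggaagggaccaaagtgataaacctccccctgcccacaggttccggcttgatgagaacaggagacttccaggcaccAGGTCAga
The Apoa4 window held CAAAGTNCA once, a motif found in 1.41% of 32851 windows of the same length. The Apoa5 window held TATAAA, found in 13.6% of windows, and CACGTG, found in 7.15%. The Apoc2 window held AGGTCA, found in 16.3% of windows, at 2 places. Neither the Apoa1 window nor the Apoe window held any of the 4. The other windows with a match were those of Apoa2 and Apob, each with TATAAA, and Apoh, with AGGTCA. Relative to the RefSeq start, TATAAA began at -212 in Apoa2, -60 in Apob and -56 in Apoa5. The letters alone do not show that a match acts as a TATA box. The RefSeq start behind the Apoh window lies 51943 bases inside the GENCODE span given for Apoh. Those behind the Apoa4, Apoa1 and Apob windows lie 148, 50 and 29 bases inside the spans of these genes. Part of the bases counted as before the start in these windows therefore lies within the GENCODE gene. These matches are descriptions of the letters and not evidence of binding.

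No apolipoprotein gene was called different between the genotypes in the quasi-likelihood test of edgeR, adjusted over all 13867 genes by the Benjamini-Hochberg method. The count was 0 of 10, where the test called 12.4% of all genes, 8.6% as higher and 3.84% as lower in CgA-KO. Without adjustment, 1 of 10, Apoc1, had an edgeR p under 0.05, against 29.1% of all genes. The limma-voom fit also called 0 of 10, against 13.1% of all genes, and likewise had Apoc1 alone under 0.05 without adjustment. DESeq2 called 1 of 10, again Apoc1, where it called 17.2% of the 15083 genes to which it gave an adjusted p. All 10 fitted log2 fold changes were below 0, with a median of -0.22 and a range from -1.07 to -0.00, against a median of -0.01 over all genes tested. The list of hepatocyte markers lay on the same side, with 16 of 18 below 0 and a median of -0.19. The direction depended on the scaling, since with library size alone 6 of 10 were above 0 and their median was 0.09, while the median of all genes moved to 0.26. In only 1 of the 10, Apoc1, did the 3 CgA-KO libraries lie apart from the 3 WT libraries, a separation seen in 33.6% of all genes tested. The 95% intervals of the other 9 included 0, and the narrowest, that of Apob, ran from -0.76 to 0.41 on the log2 scale.

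**Figure D1:**
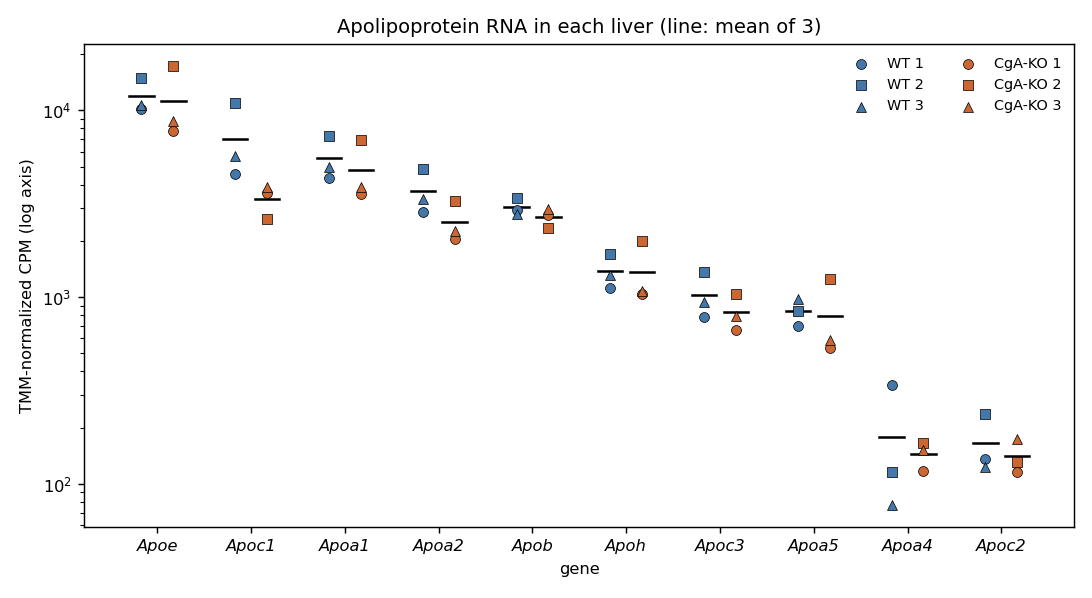
TMM-normalized CPM (log axis) of the 10 genes in each library, with WT in blue, CgA-KO in orange, a marker shape per replicate number and a line at the mean of 3. Only for Apoc1 do all orange points (2605 to 3886) lie below all blue points (4563 to 10880); CPM are not divided by transcript length, so heights of different genes are not compared.

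Apoc1 encodes a small exchangeable apolipoprotein that inhibits lipoprotein lipase. Its level in CPM, with TMM (trimmed mean of M values) scaling, was 4563, 10880 and 5667 in WT replicates 1, 2 and 3, and 3590, 2605 and 3886 in CgA-KO replicates 1, 2 and 3. WT replicate 2 was by far the highest and CgA-KO replicate 2 the lowest, and the genotypes did not overlap. The WT mean was 7037 ± 3374 CPM and the CgA-KO mean 3361 ± 671 CPM (SD, n = 3 each), a log2 fold change of -1.07 ± 0.39 (SE), with a 95% interval from -1.94 to -0.19. The edgeR p was 0.0222 and the adjusted p 0.106, so the difference did not pass the test over all genes. With DESeq2 the adjusted p was 0.0142 at a log2 fold change of -1.09. Without WT replicate 2 the log2 fold change was -0.61 and the edgeR adjusted p 0.263, and over the fits without 1 library the adjusted p ranged from 0.0554 to 0.263.

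Apoe encodes the ligand by which remnant particles are taken up by the liver, and it is made by macrophages as well as hepatocytes. The WT replicates 1, 2 and 3 had 10156, 14833 and 10731 CPM of it, and the CgA-KO replicates 7718, 17285 and 8793 CPM. CgA-KO replicate 2 was the highest of all 6 libraries and the other CgA-KO libraries were the lowest, so the genotypes overlapped. The log2 fold change was -0.08 ± 0.39 (SE), with an edgeR adjusted p of 0.919 and a 95% interval from -0.96 to 0.80. Without CgA-KO replicate 2 it was -0.49, and without CgA-KO replicate 1 it was 0.17. The higher Kupffer cell markers in CgA-KO libraries thus stood beside an Apoe level without a called change, and their part in the Apoe level was not tested.

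Apoc2 encodes the activator of lipoprotein lipase. It had 136, 236 and 123 CPM in WT replicates 1, 2 and 3, and 116, 131 and 174 CPM in the CgA-KO replicates, with a log2 fold change of -0.24 ± 0.29 (SE), an edgeR adjusted p of 0.640 and a 95% interval from -0.90 to 0.42. The genotypes overlapped, with WT replicate 2 the highest. Of the 31-base windows of the Apoc2 transcripts, 78.8% were shared with the read-through transcript Gm44805, whose own counts were 5.52% to 14.6% of those of Apoc2. How reads were divided between these rows depends on the quantification, so the Apoc2 values are less certain than those of Apoc1, Apoe, Apoa1, Apoa2, Apob and Apoc3, which shared 0 such windows with other genes.

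Apoc4, the remaining gene of the chromosome 7 cluster, lies between Apoc1 and Apoc2 and was singled out after its values were seen. It overlaps Gm44805 as well, and 13.2% of the 31-base windows of its transcripts were shared with other genes. It had 548, 1211 and 632 CPM in WT replicates 1, 2 and 3, and 451, 321 and 485 CPM in the CgA-KO replicates. As with Apoc1, WT replicate 2 was the highest, CgA-KO replicate 2 the lowest, and the genotypes did not overlap. Its log2 fold change was -0.93 ± 0.34 (SE) with an edgeR adjusted p of 0.110, and DESeq2 gave an adjusted p of 0.0331. Over the fits without 1 library the edgeR adjusted p ranged from 0.0567 to 0.268. Apoc4 counts were 0.111 to 0.120 of those of Apoc1 in WT and 0.123 to 0.126 in CgA-KO libraries, a narrow ratio that was higher in every CgA-KO library (exact two-sided permutation p = 0.1). That is the smallest p that 3 against 3 libraries allow, here and in the other exact tests. The share of all genes that do not overlap relative to Apoc1 was not computed. Relative to the summed counts of the 10 genes, that share was 23.6% of all genes tested. The ratio of Apoc1 to Apoe counts was 0.449, 0.733 and 0.528 in WT replicates 1, 2 and 3 and 0.465, 0.151 and 0.442 in the CgA-KO replicates, which overlapped (exact two-sided permutation p = 0.2). Within this cluster the log2 fold changes therefore ran from -0.08 at Apoe to -1.07 at Apoc1, 6.53 kb away by gene starts.

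**Figure D2:**
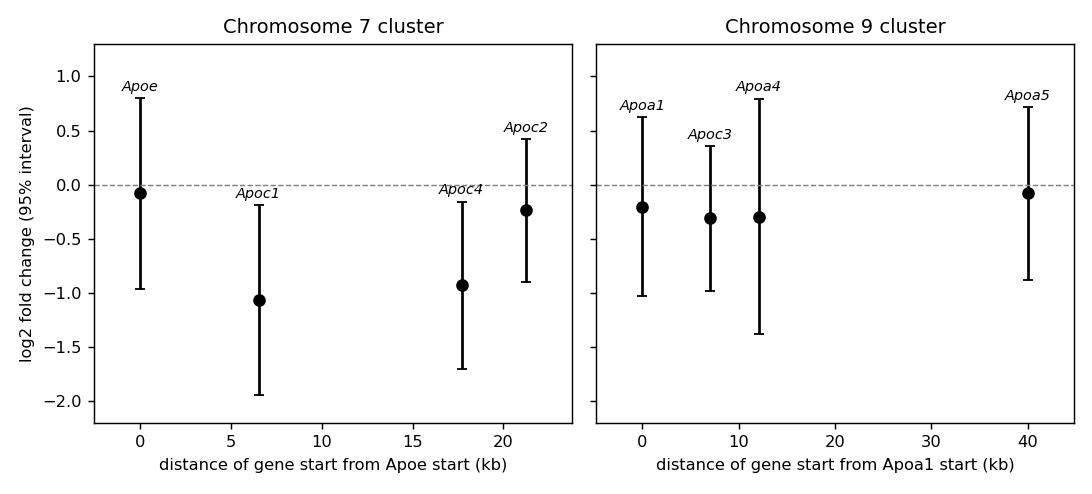
Log2 fold change of CgA-KO against WT with its 95% interval (edgeR, vertical axis) against the distance of each gene's start from that of Apoe (chromosome 7, left) or Apoa1 (chromosome 9, right) in kb. The intervals of Apoc1 and Apoc4 lie below 0 and those of the other 6 genes include 0.

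Apoa1, the structural protein of high density lipoprotein and activator of lecithin cholesterol acyltransferase, had 4327, 7302 and 4973 CPM in WT replicates 1, 2 and 3, and 3575, 6957 and 3889 CPM in the CgA-KO replicates. Replicate 2 was the highest in both genotypes, and the ranges overlapped. CgA-KO differed from WT by a log2 fold change of -0.20 ± 0.36 (SE), with an edgeR adjusted p of 0.758 and a 95% interval from -1.03 to 0.62.

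Apoa2, the second main protein of high density lipoprotein, had 2836, 4866 and 3336 CPM in WT replicates 1, 2 and 3, and 2042, 3279 and 2249 CPM in the CgA-KO replicates. Only CgA-KO replicate 2 reached into the WT range. The log2 fold change was -0.54 ± 0.32 (SE), with an edgeR adjusted p of 0.305 and a 95% interval from -1.28 to 0.19. Relative to Apoa1 the genotypes did separate. Apoa2 counts were 0.655, 0.666 and 0.671 of those of Apoa1 in WT and 0.571, 0.471 and 0.578 in CgA-KO libraries, lower in all 3 by a log2 difference of -0.30 (exact two-sided permutation p = 0.1). This ratio is taken within a library and does not depend on how libraries are scaled. Of 9 such ratios of gene pairs computed, those of Apoa2 to Apoa1 and Apoc4 to Apoc1 did not overlap. The share of all genes that do not overlap relative to Apoa1 was not computed. Relative to the summed counts of the 10 genes, 23.6% of all genes tested did not overlap, so both ratios are given as a description.

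Apob encodes the non-exchangeable protein of very low and low density lipoprotein, 1 copy of which stays with each particle. It had the smallest spread of the 10, with 2917, 3391 and 2770 CPM in WT replicates 1, 2 and 3, and 2737, 2339 and 2967 CPM in the CgA-KO replicates. The coefficient of variation was 10.7% in WT and 11.8% in CgA-KO livers, where those of the other members ranged from 16.5% to 79.7% in WT and from 17.3% to 50.2% in CgA-KO livers. The ranges overlapped, with a log2 fold change of -0.17 ± 0.26 (SE), an edgeR adjusted p of 0.703 and a 95% interval from -0.76 to 0.41.

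Apoc3, an inhibitor of lipoprotein lipase and of remnant uptake, had 782, 1367 and 940 CPM in WT replicates 1, 2 and 3, and 665, 1035 and 788 CPM in the CgA-KO replicates. Replicate 2 was again the highest in both genotypes. Its log2 fold change was -0.31 ± 0.30 (SE), with an edgeR adjusted p of 0.529 and a 95% interval from -0.98 to 0.36.

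Apoa5, which promotes the breakdown of triglyceride by lipoprotein lipase, had 698, 842 and 975 CPM in WT replicates 1, 2 and 3, and 535, 1251 and 592 CPM in the CgA-KO replicates. The highest value and both lowest values were in CgA-KO libraries. The log2 fold change was -0.08 ± 0.35 (SE), with an edgeR adjusted p of 0.910 and a 95% interval from -0.88 to 0.72. Without CgA-KO replicate 2 it was -0.54.

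Apoa4, which the intestine makes in large amounts and mouse liver makes in a nutrition-dependent way, had 339, 116 and 77.1 CPM in WT replicates 1, 2 and 3, and 116, 164 and 152 CPM in the CgA-KO replicates. WT replicate 1, at 3.51 times the mean of the other WT libraries, set the WT spread, and the CgA-KO values lay inside the WT range. The log2 fold change was -0.29 ± 0.48 (SE), with an edgeR adjusted p of 0.734 and a 95% interval from -1.38 to 0.80. It turned to 0.62 without WT replicate 1. Of the enterocyte markers, Sis had 0 counts in every library, and Vil1, Alpi, Lct and Cdh17 had at most 12. The sixth marker, Fabp2, a fatty acid binding protein, was the exception, with 513 to 4289 counts and a mean of 102 ± 70.0 CPM in WT against 38.0 ± 21.8 CPM in CgA-KO livers (SD, n = 3 each). Its log2 fold change was -1.43 with an edgeR adjusted p of 0.120, and its part in the Apoa4 level was not tested. In 64.5% of the 31-base windows of Apoa4 transcripts the sequence was shared with Gm10680 and Gm47528, genes on the opposite strand. For Apoa5 18.4% was shared with the antisense gene Gm47544. Whether strand was used in counting is not stated, so transcripts of both strands cannot be told apart in these stretches. None of Gm10680, Gm47528 and Gm47544 has a row in the count table.

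Apoh encodes beta-2-glycoprotein I, a phospholipid-binding plasma protein. It had 1114, 1691 and 1307 CPM in WT replicates 1, 2 and 3, and 1041, 1989 and 1077 CPM in the CgA-KO replicates, with a mean of 1370 ± 294 and 1369 ± 537 CPM (SD, n = 3 each). The means were nearly equal, but the interval was not narrow, with a log2 fold change of -0.00 ± 0.33 (SE), an edgeR adjusted p of 0.998 and a 95% interval from -0.74 to 0.74.

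**Figure D3:**
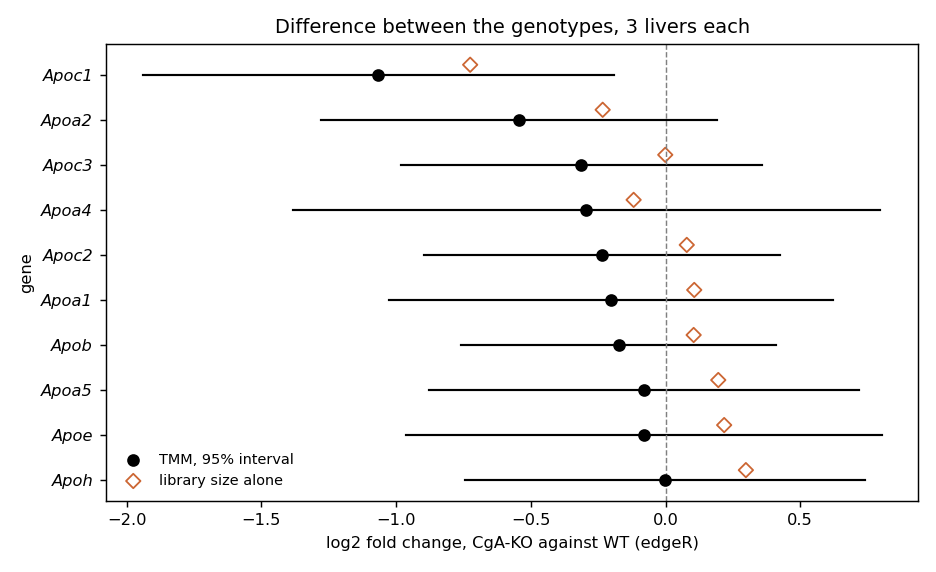
Fitted log2 fold change of CgA-KO against WT for each gene (filled points, edgeR with TMM factors, bars 95% interval) and the value with library size alone (open diamonds). All 10 filled points lie below 0 (from -1.07 for Apoc1 to -0.00 for Apoh), and 6 of the 10 diamonds lie above 0.

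The genes differed in how they followed the individual libraries. Within WT, 8 of 10 were highest in replicate 2, the exceptions being Apoa4 in replicate 1 and Apoa5 in replicate 3. WT replicate 2 had a TMM factor of 0.756, against 0.935 to 1.12 in the other libraries. That factor raises the CPM of every gene in WT replicate 2 above its value by library size alone. Its part in this pattern was not tested. Within CgA-KO, 7 of 10 were highest in replicate 2, while Apob, Apoc1 and Apoc2 were highest in replicate 3. Apoe in CgA-KO replicate 2 was 2.09 times the mean of the other CgA-KO libraries, Apoa5 2.22 times, Apoh 1.88 times and Apoa1 1.86 times. In the same library Apoc1 was 0.697 times and Apob 0.820 times that mean, so this liver was high in one group of apolipoprotein transcripts and low in another. The hepatocyte markers summed to 116952 CPM there, against 81329 and 74374 CPM in the other CgA-KO libraries, and the part of that shift in the apolipoprotein levels was not tested. As a description over the 6 libraries, which share the scaling and the genotype groups, Pearson's r of log2 CPM was 0.978 between Apoe and Apoh, 0.973 between Apoa1 and Apoe, and 0.961 between Apoa2 and Apoc3. It was 0.873 between Apob and Apoc1, 0.160 between Apoc1 and Apoe, and -0.438 between Apoa5 and Apob. For Apoa4 it lay between -0.293 and 0.00601 with every other member.

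**Figure D4:**
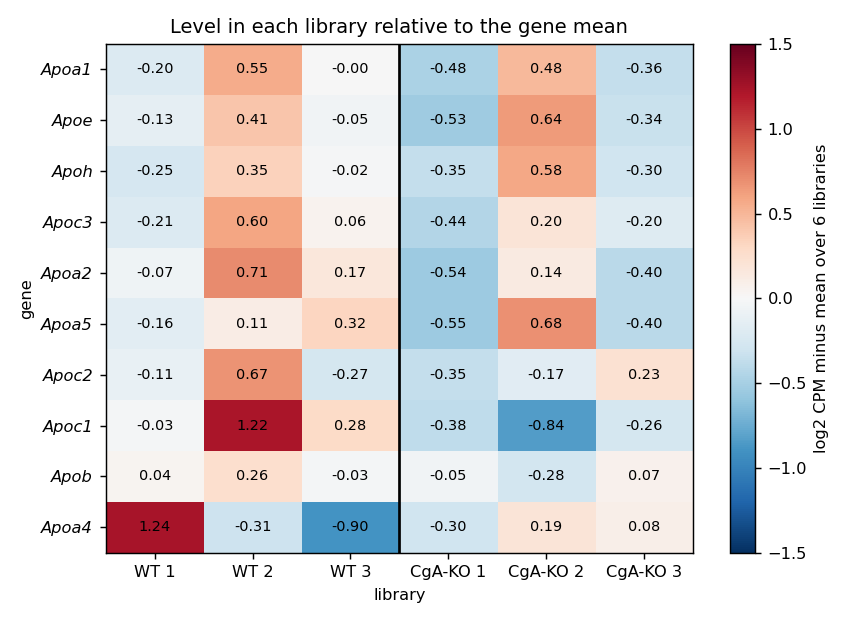
Log2 CPM of each gene in each library minus the gene's mean over the 6 libraries (colour and printed value; WT left of the line, CgA-KO right). WT replicate 2 is above the mean for 9 of 10 genes, CgA-KO replicate 2 is high for Apoa5 (0.68) and Apoe (0.64) but low for Apoc1 (-0.84), and Apoa4 stands out in WT replicate 1 (1.24).

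The make-up of the apolipoprotein counts was compared within libraries, which removes the scaling. The 10 genes together took 2.95%, 3.44% and 2.89% of all counts in WT replicates 1, 2 and 3, and 2.48%, 4.07% and 2.66% in the CgA-KO replicates, so their total overlapped between the genotypes. Shares of 3 of the 10 genes did not overlap, with an exact two-sided permutation p of 0.1 each, where 23.6% of all genes tested did not overlap when set against the same summed counts. The count of 3 is therefore near the background, and the shares are given as a description. Apoc1 made up 16.4%, 23.9% and 18.3% of the apolipoprotein counts in WT and 16.2%, 7.03% and 15.8% in CgA-KO libraries. The gap between the nearest WT and CgA-KO libraries was small, and CgA-KO replicate 2 set most of the difference, since the log2 difference of -0.66 was -0.27 without it.

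Apoa2 made up 10.2%, 10.7% and 10.8% in WT and 9.23%, 8.85% and 9.15% in CgA-KO libraries, a log2 difference of -0.22. This was a small difference with little spread. Apoh ranged from 3.71% to 4.23% over the WT libraries and from 4.39% to 5.37% over the CgA-KO libraries, a log2 difference of 0.27.

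Against the summed counts of the 18 hepatocyte markers instead, 2 of 10 did not overlap, where 21.5% of all genes tested did not. Apoa2 was again lower in every CgA-KO library, with a log2 difference of -0.37 (exact two-sided permutation p = 0.1). Apoc1 was also lower in every one, by a log2 difference of -0.82 (exact two-sided permutation p = 0.1). Apoh overlapped on this scale, with 0.12 (exact two-sided permutation p = 0.5). The remaining 7 genes overlapped between the genotypes in their share of the apolipoprotein counts, with exact permutation p from 0.4 to 0.9, and 10 shares were tested on each scale. None of these shares could reach a p under 0.05 in this design.

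**Figure D5:**
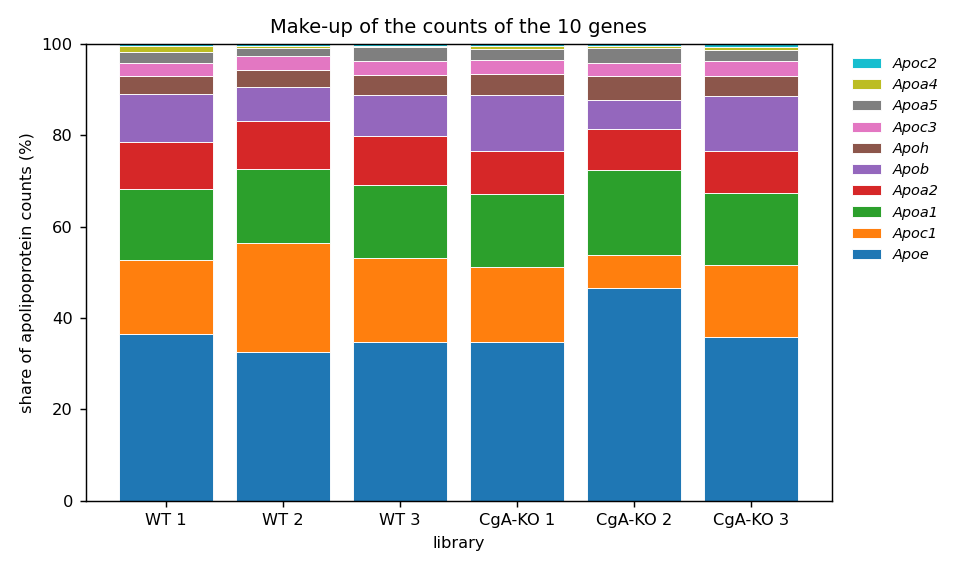
Stacked bars of the share (%) of each gene in the summed counts of the 10 genes, 1 bar per library. Apoe takes 46.7% and Apoc1 7.03% in CgA-KO replicate 2, where the other libraries have 32.6% to 36.4% and 15.8% to 23.9%.

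Levels of different genes were compared only per length, as CPM per kb of exon of the principal transcript. Averaged over the 6 libraries, the order was Apoc1 (9772 CPM per kb), Apoe (8229), Apoa2 (5987), Apoa1 (4996), Apoc3 (1767), Apoh (1151), Apoa5 (324), Apoc2 (210), Apob (205) and Apoa4 (88.6). Each of Apoe, Apoa1, Apoc3, Apoh and Apob exceeded the next gene in that order in 6 of 6 libraries. Apoc1 exceeded Apoe, Apoa2 exceeded Apoa1, and Apoa5 exceeded Apoc2 in 5 of 6. Apoc2 and Apob could not be ordered, with Apoc2 the higher in 3 of 6. By coding length the order of the means was the same, but Apoc2 exceeded Apob in 6 of 6, Apob exceeded Apoa4 in 5 of 6, Apoe exceeded Apoa2 in 5 of 6, Apoa2 exceeded Apoa1 in 6 of 6 and Apoa5 exceeded Apoc2 in 4 of 6. Apob, the longest transcript at 13.9 kb of exon, stood near the bottom per length on both scales. In WT livers Apoc1 had 13227 ± 6342 and Apoe 8456 ± 1812 CPM per kb, and in CgA-KO livers 6317 ± 1261 and 8001 ± 3722 CPM per kb (SD, n = 3 each).

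Of 17 other apolipoprotein genes listed, 13 were tested, and 2 were called by edgeR, 1 higher and 1 lower, near the 12.4% of all genes, with a median log2 fold change of -0.00. Apol7a, of the intracellular apolipoprotein L family, fell from 132 ± 8.79 to 53.8 ± 10.8 CPM (SD, n = 3 each), a log2 fold change of -1.29 with an adjusted p of 0.00763. Apol10b, of the same family, had 2, 2 and 0 counts in WT and 18, 55 and 24 counts in CgA-KO libraries (edgeR adjusted p 0.0170). It passed the filter on low counts only through the CgA-KO libraries, where it was high. With at least 10 counts required in every library it was not tested, so its call is given as a description. Its fitted log2 fold change of 3.99, which at such WT counts depends on the prior count, was 4.16 without WT replicate 2, 3.28 without WT replicate 3 and 3.66 without CgA-KO replicate 2, each with an adjusted p between 0.0594 and 0.0691.

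In each list of genes that act on apolipoproteins, few genes were called, and the shares are to be read against the 12.4% of all genes called. Among 12 genes of lipoprotein assembly and secretion, 1 rose, 0 fell and 11 were not called, with a median log2 fold change of -0.31. The 1 that rose was Apobec1, the enzyme that edits Apob mRNA so that the short apolipoprotein B48 is made, from 14.0 ± 3.03 to 45.0 ± 11.0 CPM (SD, n = 3 each). Its log2 fold change was 1.69 with an edgeR adjusted p of 0.00581. Apobec1 is also expressed by macrophages, whose markers were higher in the same libraries, and their part in its level was not tested. Gene counts cannot show whether the edited base of Apob differed.

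Among 12 genes of lipoprotein remodelling, 1 rose and 1 fell, with a median log2 fold change of -0.16. Lpl, the lipase that Apoc2 activates and Apoc3 inhibits, rose from 19.6 ± 2.84 to 115 ± 38.3 CPM (SD, n = 3 each), a log2 fold change of 2.56 with an edgeR adjusted p of 0.00296. Lpl is a macrophage gene as well. The Kupffer cell markers were higher in the same libraries, at a median log2 fold change of 3.04, and their part in the Lpl level was not tested. Lipg, the endothelial lipase that acts on high density lipoprotein, fell from 30.3 ± 10.4 to 12.1 ± 3.85 CPM (log2 fold change -1.32, edgeR adjusted p 0.0251). Its call was lost with library size alone and without any 1 library other than CgA-KO replicate 3.

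Among 16 regulators of apolipoprotein genes, 0 rose and 2 fell, with a median log2 fold change of -0.10. Of all genes, 12.4% were called, 8.6% as higher and 3.84% as lower. Without adjustment, 7 of the 16 had an edgeR p under 0.05, against 29.1% of all genes. In 6 of the 16 the libraries of the genotypes did not overlap in CPM, against 33.6% of all genes. Srebf1, a driver of fatty acid synthesis, fell from 122 ± 39.4 to 36.8 ± 11.4 CPM (log2 fold change -1.73, edgeR adjusted p 0.0128), with adjusted p of 0.0513 without WT replicate 2 and 0.0553 without WT replicate 3. Nr2f2, a nuclear receptor that can repress apolipoprotein promoters, fell from 50.2 ± 4.53 to 31.3 ± 0.757 CPM (log2 fold change -0.68, edgeR adjusted p 0.0251), a call lost with library size alone, with the replicate number as a block, and without any 1 library other than WT replicate 2.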

How the data were processed

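Poly(A) RNA-seq counts of 3 WT and 3 CgA-KO livers were used. The authors deposited raw counts per gene symbol in 1 table, made with Salmon 1.4.0 against GRCm38 per the labels. How transcripts were summed to genes and whether strand was used are not given in the sources used here. Of the 32212 rows, 78 repeated an earlier symbol, no apolipoprotein gene among them. All 6 columns were mapped to samples by their titles, and 0 were left unused.

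Genes that passed filterByExpr (minimum count 10) were fitted with edgeR 4.0.16 in R 4.3.3, with TMM factors, robust quasi-likelihood and a two-sided test, adjusted by Benjamini-Hochberg over all 13867 genes and called under 0.05. SE values are approximations from the F statistic. Alternatives were DESeq2 1.42.0, limma-voom (limma 3.58.1), other scalings and filters, a replicate block and leaving out each library. Shares and ratios were compared by exact permutation tests. The depth allows detection down to 3 counts, and such floors cover counting error only. P-values of the fits weigh a difference against the spread between these 3 mice per genotype, with information shared across genes. Exact permutation tests set the observed difference among all assignments of the 6 libraries to the genotypes.

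All 10 members are named, and from the other lists the called genes, at most 6 a list by smallest p. The list of lipoprotein receptors is not reported here. The members and lists were chosen with earlier results of these data known. Window sharing, positions and lengths came from GENCODE transcripts of GRCm38, and promoters from RefSeq. The coding length was taken from GENCODE and not from a protein table. The script was tested on simulated data. Figures used matplotlib 3.10.9 in Python 3.11.15.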

Additional observations from a re-analysis of the deposited data

How the results depend on the processing

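The apolipoprotein genes called numbered 0 of 10 under every alternative except DESeq2, which called 1, Apoc1. Over all genes the count of calls was 1726, with 2592 by DESeq2, 1498 with the replicate block, and 394 to 2126 over the fits without 1 library, lowest without WT replicate 3. Leaving out WT replicate 2 gave 841, leaving out CgA-KO replicate 1 gave 744 and leaving out CgA-KO replicate 2 gave 976. Same-numbered samples had correlations of their deviations of 0.20, 0.01 and -0.07, where differently numbered samples ranged from -0.26 to 0.23. No pairing by replicate number was seen, but 3 samples per genotype cannot exclude one. The replicate block turned Apoa4 to a log2 fold change of 0.013 and took Nr2f2 to an edgeR adjusted p of 0.0564.

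Several log2 fold changes near 0 changed sign. With library size alone they were 0.11 for Apoa1, 0.20 for Apoa5, 0.10 for Apob, 0.079 for Apoc2, 0.22 for Apoe and 0.30 for Apoh. With library size without the 100 most abundant genes they were 0.066 for Apoa5, 0.080 for Apoe and 0.16 for Apoh, and the calls of Lipg and Nr2f2 were lost. Apoh was at 0.062 with upper-quartile factors, 0.00314 with a total of at least 1 count and 0.037 with at least 10 counts in every library. Over the fits without 1 library the ranges were -0.52 to 0.046 for Apoa1, -0.66 to 0.62 for Apoa4, -0.54 to 0.17 for Apoa5, -0.42 to 0.11 for Apoc2, -0.49 to 0.17 for Apoe and -0.33 to 0.20 for Apoh. Apoc1, Apoa2 and Apoc3 stayed below 0 in every fit, Apoc3 at only -0.00094 with library size alone. The cause of these shifts was not tested. Against the 18 hepatocyte markers the log2 share differences were -0.07 for Apoa1, -0.37 for Apoa2, -0.13 for Apoc3 and 0.12 for Apoh. With coding length the WT level of Apoc1 was 26654 per kb.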
